A study of Homo sapiens with 18 samples.

Results

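Expression of 36 human genes of the interferon response and of MHC class I antigen presentation was examined in xenograft tumours of HCT116, an established line of human colon cancer cells. The 36 genes were chosen by name, not by a threshold on their values, and all 36 were found among the 25343 human genes of each library. They comprised 5 transcription factors of the interferon response (regulators), 17 interferon-induced effectors, 6 genes of nucleic acid sensing and 8 genes of MHC class I antigen presentation. All tumours carried a knockout of PTDSS2, 1 of the 2 human genes for phosphatidylserine synthases, and the study concerns inhibition of the other enzyme, PTDSS1. Mice were dosed by mouth with vehicle, with DS55980254 at 10 mg/kg or with the same compound at 30 mg/kg, in 0.5% methylcellulose, and tumours were taken 24 hours later. Each of the 3 groups held 6 tumour libraries, and the vehicle group carried the same knockout. Mouse strain, sex and age are not stated in the labels, nor is whether the knockout line was 1 clone. Nothing says that the tumours of a group came from separate mice, so p-values measure only the spread between these samples, which may be technical.

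Interferons are secreted proteins that cells release when they sense foreign or misplaced nucleic acid. They bind receptors that activate the JAK kinases, and a complex that holds STAT2 and IRF9 then binds a promoter element called the interferon-stimulated response element, or ISRE. The genes switched on there encode antiviral effectors, more of the sensors, and the machinery that cuts proteins into peptides, carries the peptides into the endoplasmic reticulum and shows them on MHC class I molecules to T cells. Epithelial tumour cells can keep a basal level of this programme without added interferon, and they raise it when they are exposed to interferon.

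The ISRE is written into the promoters of many of the 36 genes, and the stretches below show it beside the genes whose levels are described later. RefSeq promoter windows (GRCh38.p14, from 250 bases before to 50 bases after the start of a transcript) were matched for 29 members. Each was searched on both strands for an ISRE-like run of letters, GAAA followed by any 2 bases and a further GAAA, and neighbouring matches may overlap. The run was found in 19 of 29 members (65.5%), against 4.38% of the 27305 genes with a window and 3.57% of all 35116 windows. It was found in 12 of 14 effectors, 5 of 8 MHC class I genes, 2 of 4 sensing genes and 0 of 3 regulators. A match describes the letters and does not show that a factor binds. IRF3, IRF7, IFIT2, OAS2, OASL, CGAS and STING1 were not matched. The sequences are printed 5′ to 3′ along the gene's own strand, with the ISRE-like letters in capitals. They come from ISG15 (chr1:1013362-1013421, plus strand), IFIT1 (chr10:89392488-89392547, plus strand), IFI6 (chr1:27672251-27672310, minus strand), OAS3 (chr12:112938437-112938496, plus strand), BST2 (chr19:17405723-17405782, minus strand), B2M (chr15:44711351-44711410, plus strand) and TAPBP (chr6:33314061-33314120, minus strand).
ISG15: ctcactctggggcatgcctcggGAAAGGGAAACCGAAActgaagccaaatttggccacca
IFIT1: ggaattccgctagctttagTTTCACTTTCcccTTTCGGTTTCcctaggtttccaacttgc
IFI6: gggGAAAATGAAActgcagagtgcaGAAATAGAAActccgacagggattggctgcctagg
OAS3: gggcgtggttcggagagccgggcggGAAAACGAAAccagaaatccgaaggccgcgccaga
BST2: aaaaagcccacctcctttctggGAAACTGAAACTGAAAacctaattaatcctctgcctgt
B2M: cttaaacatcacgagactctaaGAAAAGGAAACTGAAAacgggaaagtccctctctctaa
TAPBP: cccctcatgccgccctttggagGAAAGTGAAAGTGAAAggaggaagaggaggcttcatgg

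In ISG15, BST2, B2M and TAPBP 2 matches overlapped, so that the GAAA block occurs 3 times in a row. In IFIT1 both matches lay on the opposite strand, and in OAS3 the match in the stretch lay just before the transcript start. The 250 bases before the start of TAP1 (chr6:32853705-32853954, minus strand), which encodes a subunit of the peptide transporter, are shown because TAP1 lies head to head with PSMB9, a proteasome subunit gene, with 488 bases between their starts.
TAP1: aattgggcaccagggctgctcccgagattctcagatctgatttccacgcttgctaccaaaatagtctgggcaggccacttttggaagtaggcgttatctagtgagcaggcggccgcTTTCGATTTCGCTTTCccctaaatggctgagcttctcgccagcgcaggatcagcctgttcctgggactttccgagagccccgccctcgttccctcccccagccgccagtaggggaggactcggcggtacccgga

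TAP1 had 2 overlapping matches on the opposite strand, and the PSMB9 window had 0. The 19 members with the run had a median vehicle level of 71.4 TPM (a level scaled for transcript length) and the 10 without it 85.6 TPM. Their median log2 differences from vehicle were 0.01 and 0.04 at 10 mg/kg and 0.02 and -0.01 at 30 mg/kg.

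**Figure D1:**
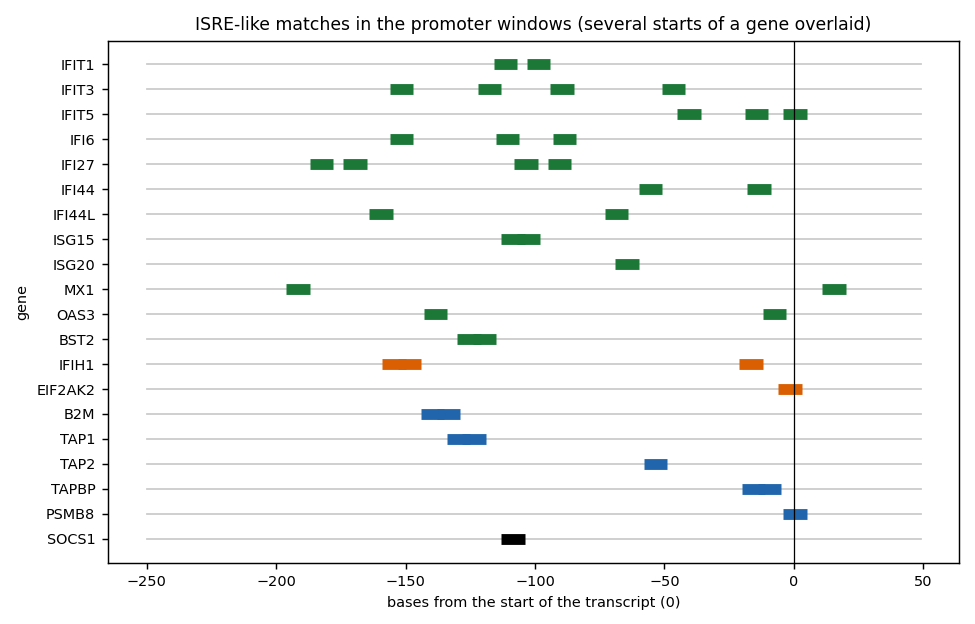
Positions of ISRE-like matches (bars, both strands) in the promoter windows of the 19 members that hold one and of SOCS1, in bases from the transcript start at 0. Grey lines span the window and colours give the role (green effectors, orange sensing, blue MHC class I, black SOCS1, which is not a member); most bars lie before the start.

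The tumours were sampled to unequal depth. Counts on human genes totalled 3435423 to 8538792 in 17 libraries and 433981 in 10 mg/kg replicate 2, whose mean correlation with the other libraries was 0.726, against 0.942 to 0.954 for the remaining 17. In that library 17 of the 35 members tested had under 20 counts, so the 10 mg/kg values that it moves most are given with and without it. PTDSS2 is labelled as knocked out and had 4.97 to 13.9 CPM (counts scaled to library size and composition) over the 18 libraries, and counts per gene do not tell edited from intact transcripts. Epithelial markers were abundant: KRT8, KRT18, EPCAM and CDH1 carried most of a summed 3985 to 4635 CPM over 10 markers with vehicle. The remaining 6, all markers of the colon epithelium, were scarce there, with means of 12.3 CPM for CDX2, 1.19 for KRT20, 0.344 for VIL1, 0.266 for LGR5, 0.182 for CEACAM5 and 0 for CDX1. Sums of 23 leukocyte, fibroblast and endothelial markers, leaving out COL1A1, were 20.8 to 32.8 CPM in 15 libraries. They were 233 CPM in 10 mg/kg replicate 2, 62.5 CPM in 10 mg/kg replicate 4 and 50.4 CPM in 30 mg/kg replicate 5. Of the 23 markers 2, 2 and 3 were at 0 in those libraries, against 6 to 12 in the vehicle libraries and 5 to 16 in all 15 others. Genes with a count numbered 19680 (on the 433981 counts), 21578 and 20911 in the same libraries, and 16902 to 19875 in the other 15. With COL1A1 kept, the sum over the 6 fibroblast markers was 317 CPM in 10 mg/kg replicate 2. It was 84.5 CPM in 10 mg/kg replicate 4 and 69.3 CPM in 30 mg/kg replicate 5. Both of these lay inside the vehicle range of 61.85 to 108.9 CPM. Whether the sums reflect other cells or wider detection of scarce genes was not tested.

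With vehicle the tumours already transcribed nearly the whole programme, over a wide range of levels. IFI6, a small mitochondrial protein induced by interferon, led at 1418 ± 71.2 TPM (SD, n = 6). It was followed by HLA-C, a heavy chain of MHC class I, at 999 ± 62.2 TPM, and ISG15, a ubiquitin-like protein that is attached to other proteins, at 962 ± 99.3 TPM (SD, n = 6 each). B2M, the light chain shared by all class I molecules, stood at 692 ± 47.8 TPM, IFI27 at 577 ± 96.2 TPM and HLA-B at 549 ± 67.5 TPM (SD, n = 6 each). BST2, which tethers budding virus to the cell surface, stood at 437 ± 60.2 TPM (SD, n = 6). Each of these 7 was above 98.97% or more of all genes in the table.

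At the other end, 3 antiviral or antigen-processing genes were scarce. MX1, a GTPase that traps viral nucleocapsids, stood at 6.45 ± 1.34 TPM, PSMB8, a catalytic subunit of the immunoproteasome, at 5.90 ± 2.41 TPM, and OAS2, which makes 2'-5' oligoadenylate, at 1.51 ± 0.431 TPM (SD, n = 6 each). OAS2 therefore stood far under its neighbour on the chromosome, OAS3, at 178 ± 7.86 TPM (SD, n = 6), and PSMB8 under PSMB9 at 44.0 ± 7.96 TPM. CGAS, the sensor of cytosolic DNA, had no count in any vehicle library and 4 counts in the 18 libraries together. These were 1 each in 10 mg/kg replicates 2 and 4 and 30 mg/kg replicates 4 and 5. A count of 0 allows up to 3 counts, or 0.359 to 0.868 CPM in the 17 deeper libraries and 6.42 CPM in 10 mg/kg replicate 2 (counting error only). Ordered by mean, neighbours overlapped in range in 27 of 35 steps. The 8 steps without overlap were IFI6 over HLA-C, ISG15 over B2M, BST2 over ADAR, ADAR over OAS3, IFIH1 over IFIT5, IFIT2 over MX1, PSMB8 over OAS2, and OAS2 over CGAS. Levels of related genes (HLA-B with HLA-C, the IFIT genes, the OAS genes, and IFI44 with IFI44L) are uncertain where the authors' counting could not split reads between them.

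**Figure D2:**
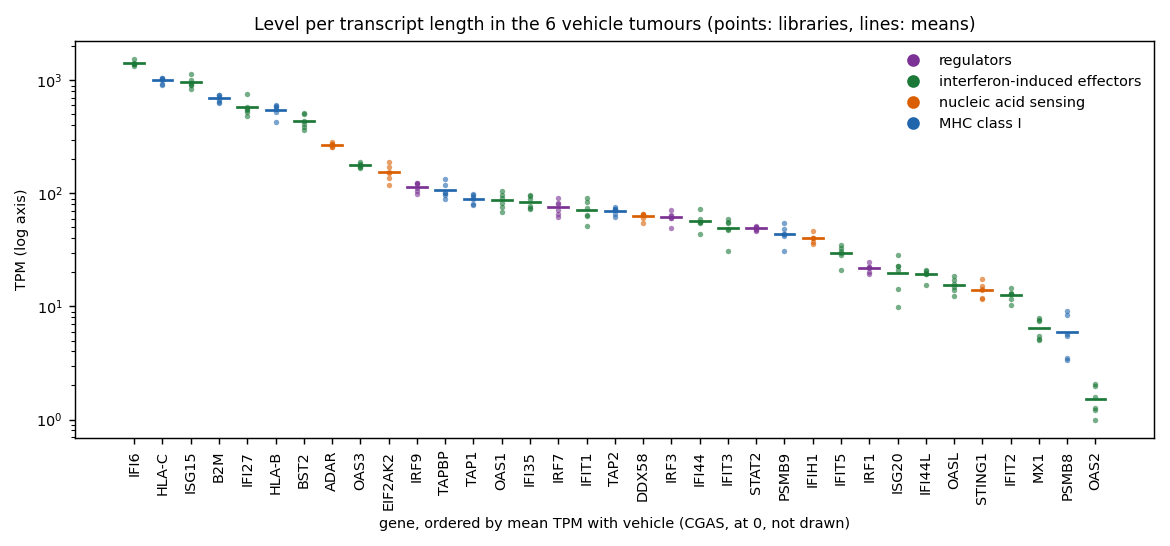
TPM (log axis) of the 35 members with counts in the 6 vehicle tumours, ordered by mean; points are libraries, lines are means and colours give the role. Levels run from 1418 TPM for IFI6 to 1.51 TPM for OAS2, and most neighbours overlap.

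No member passed the test at either dose. At 10 mg/kg 0 of 35 members tested passed (edgeR, adjusted p under 0.05 over all genes), where 0.469% of 14074 genes did, and at 30 mg/kg 0 of 35 passed, where 0.618% did. An unadjusted p under 0.05 was reached by 1 member at 10 mg/kg and 0 at 30 mg/kg, where 9.50% and 7.90% of all genes reached it. DESeq2 called 0 members at either dose, where it called 159 and 179 of the 14074 genes at 10 and 30 mg/kg. It gave 3 and 0 members an unadjusted p under 0.05, where 11.5% and 8.57% of all genes had one. At the shares passing the adjusted threshold fewer than 1 of 35 genes would be called, so a count of 0 is near the background. The median log2 difference of the members from vehicle was 0.03 at 10 mg/kg and 0.01 at 30 mg/kg, beside -0.006 and -0.001 over all genes. With 10 mg/kg 21 members were above and 14 below vehicle, and at 30 mg/kg 19 were above and 16 below, where 48.8% and 49.8% of all genes were above. The split at 10 mg/kg moved with the setting: 9 above and 26 below on TPM (where the median of all genes was -0.12), 18 and 18 with no filter on low counts, 22 and 13 without 10 mg/kg replicate 2, and 15 and 20 without replicate 5. At 30 mg/kg it was 14 and 21 on TPM and 18 and 18 with no filter. In 0 of 35 members did the 6 values of a dose group clear the 6 vehicle values, where 1.16% of all genes did so at 10 mg/kg and 1.73% at 30 mg/kg. In bulk tumour RNA, fewer cells of a type and less RNA per cell cannot be told apart.

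At 30 mg/kg the 95% interval lay within 1.5-fold of vehicle in either direction for 31 of 35 members, the others being IFI44L, ISG20, OAS2 and PSMB8, and within 2-fold for 34, the other being OAS2. With 10 mg/kg it lay within 1.5-fold for 29, the others being EIF2AK2, IFI44L, IFIT1, ISG20, OAS2 and PSMB8, and within 2-fold for 32. The median half-width was 0.32 and 0.31 on the log2 scale at 10 and 30 mg/kg. Between the doses 0 of 35 members passed (0.0% of all genes), with 1 at an unadjusted p under 0.05 (3.52% of all genes). There DESeq2 called 0 members and 0 of 14074 genes, with 2 members at an unadjusted p under 0.05 (5.22% of all genes). Over dose steps 0 of 35 passed a straight-line trend, which 0.49% of all genes passed, with 0 at an unadjusted p under 0.05 in edgeR and in DESeq2 (7.75% and 9.39% of all genes).

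**Figure D3:**
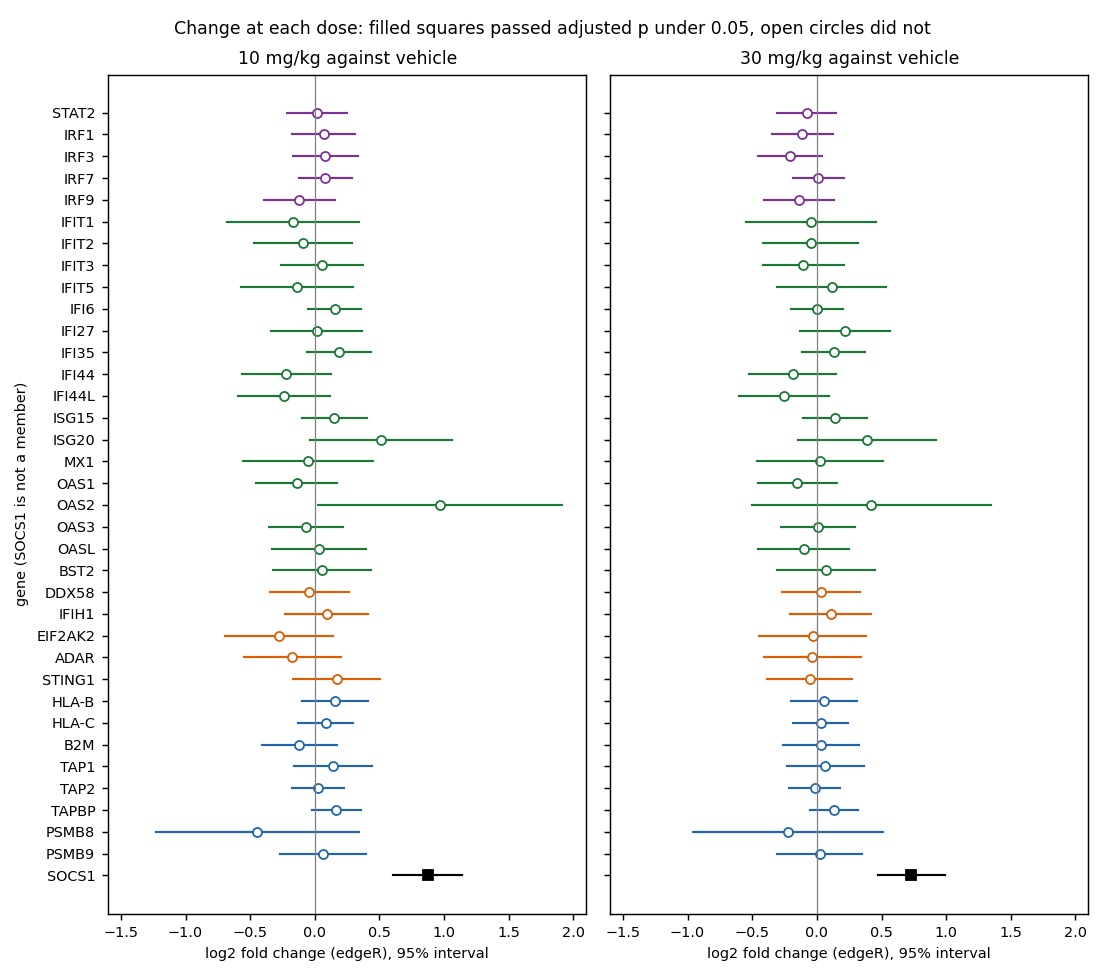
Log2 fold change against vehicle at 10 mg/kg (left) and 30 mg/kg (right) with 95% intervals from edgeR, for 35 members coloured by role (purple regulators, green effectors, orange sensing, blue MHC class I) and, in black, SOCS1, which is not a member. Open circles did not pass and filled squares passed the adjusted threshold; SOCS1 is the only filled square in either panel.

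Among the regulators, STAT2, a subunit of the ISRE-binding complex, was held most tightly of all members with vehicle, at 105.5, 112.7 and 114.6 CPM (lowest, median and highest of 6). At 10 mg/kg it stood at 72.7, 117 and 124 CPM and at 30 mg/kg at 81.6, 104.5 and 136.5 CPM. The low value at 10 mg/kg was replicate 2, the rest of that group standing at 111 to 124 CPM, and all ranges overlapped. IRF9, the DNA-binding subunit of the same complex, had medians of 96.0, 87.8 and 83.2 CPM with vehicle, 10 and 30 mg/kg (log2 differences -0.12 and -0.14, edgeR adjusted p = 0.801 and 0.924). Without 10 mg/kg replicate 2, where it had 36.4 CPM on 17 counts, the 10 mg/kg median of IRF9 was 95.4 CPM and its difference -0.04.

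IRF3, the factor that starts interferon transcription after nucleic acid sensing, had the smallest p of the members at 30 mg/kg. Its values were 42.1, 52.0 and 59.9 CPM with vehicle (lowest, median, highest), 47.4, 54.2 and 64.9 CPM at 10 mg/kg, and 36.02, 45.7 and 56.7 CPM at 30 mg/kg. The ranges overlapped throughout, and the difference from vehicle at 30 mg/kg did not pass (log2 -0.21 ± 0.12 SE, edgeR adjusted p = 0.761). Between the doses IRF3 was the single member with an unadjusted edgeR p under 0.05 (log2 -0.29, edgeR adjusted p = 0.969). IRF1, a factor that drives MHC class I genes, and IRF7, which amplifies interferon production, differed from vehicle by log2 0.07 and 0.08 at 10 mg/kg and by -0.11 and 0.01 at 30 mg/kg. For all 5 regulators the value at 30 mg/kg was below that at 10 mg/kg, by a median of -0.09 on the log2 scale, and none of the 5 differences passed.

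Among the 17 effectors the median difference was 0.01 on the log2 scale at both doses, with 9 above and 8 below vehicle at 10 mg/kg and 10 above and 7 below at 30 mg/kg. Without 10 mg/kg replicate 2 the median at 10 mg/kg was 0.05. ISG15 stood at 251.4, 279 and 348.5 CPM with vehicle (lowest, median, highest), 248, 325 and 365 CPM at 10 mg/kg, and 272, 297 and 395.5 CPM at 30 mg/kg. Its log2 differences were 0.15 ± 0.12 and 0.14 ± 0.12 (SE), and neither passed (edgeR adjusted p = 0.740 and 0.912). IFIT1, which binds foreign RNA lacking host cap marks, stood at 119.5, 153 and 198 CPM with vehicle and at 108, 162 and 186 CPM at 30 mg/kg. At 10 mg/kg it stood at 25.7, 147 and 199 CPM, the low value again being replicate 2, where it rested on 12 counts. Its difference at 10 mg/kg was -0.17 on the log2 scale with that library and -0.02 without it. Among the other abundant effectors, IFI6 differed by 0.16 and 0.001 and OAS3 by -0.07 and 0.01 on the log2 scale at 10 and 30 mg/kg, OAS3 turning to 0.05 at 10 mg/kg without that library.

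OAS2 had the smallest p of the members at 10 mg/kg and the widest spread. It stood at 1.72, 2.09 and 3.39 CPM with vehicle (lowest, median, highest), 1.03, 3.57 and 12.8 CPM at 10 mg/kg, and 2.27, 2.54 and 6.85 CPM at 30 mg/kg. Its 3 highest values were 12.8 CPM in 10 mg/kg replicate 2 (6 counts), 10.4 CPM in 10 mg/kg replicate 4 (36 counts) and 6.85 CPM in 30 mg/kg replicate 5 (25 counts). These are the 3 libraries with the highest summed leukocyte, fibroblast and endothelial markers given above, where COL1A1 was left out. The difference at 10 mg/kg was 0.97 ± 0.46 (SE) on the log2 scale (unadjusted p = 0.0442, edgeR adjusted p = 0.510). It was 0.51 without 10 mg/kg replicate 4, 0.80 without replicate 2 and 1.24 without replicate 1, the lowest and highest with 1 library left out being 0.51 and 1.24. With the 3 libraries left out, a step chosen after the data were seen, it was 0.20 (edgeR adjusted p = 0.942), but these also hold the 3 highest OAS2 values, so a fall was fixed by the choice. The part of other cells in the OAS2 values was not tested.

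ISG20, an exonuclease that degrades RNA, stood at 4.29, 9.72 and 13.6 CPM with vehicle, 6.94, 11.4 and 20.8 CPM at 10 mg/kg, and 8.57, 11.4 and 16.4 CPM at 30 mg/kg. Its medians were higher in both dose groups, but the ranges overlapped and neither difference passed (log2 0.51 ± 0.27 and 0.39 ± 0.26 SE, edgeR adjusted p = 0.568 and 0.833). IFI44L, an interferon-induced gene of the IFI44 family, went the other way, with medians of 57.9, 44.8 and 46.8 CPM and log2 differences of -0.24 and -0.26 (edgeR adjusted p = 0.701 and 0.832). IFI44, its neighbour on chromosome 1, differed by -0.22 and -0.19. With all libraries the remaining effectors, IFIT2, IFIT3, IFIT5, IFI27, IFI35, MX1, OAS1, OASL and BST2, differed from vehicle by log2 values between -0.15 and 0.22 at both doses. With and without 10 mg/kg replicate 2, the 10 mg/kg mean of IFIT5 was 49.85 and 58.1 CPM (59.7 with vehicle). It was 18.8 and 21.7 CPM for IFIT2 (21.9 with vehicle), 57.7 and 64.5 for OAS1 (67.6), and 214 and 239 for BST2 (211).

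**Figure D4:**
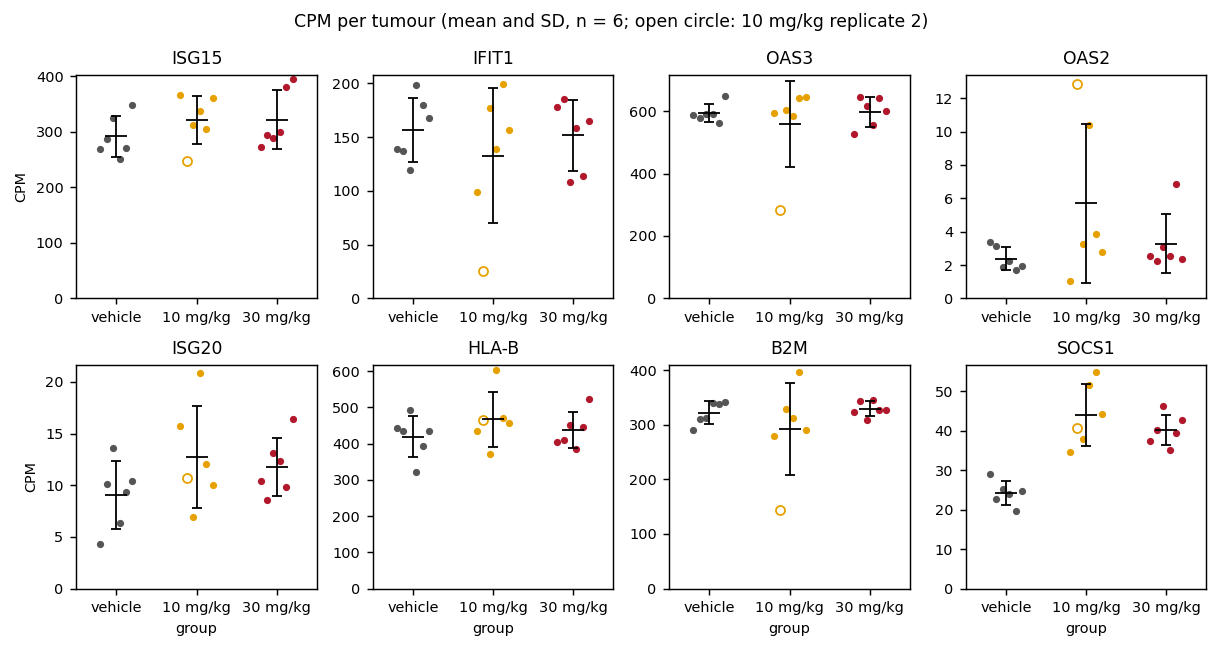
CPM per tumour of 7 members and SOCS1 by group, with axes starting at 0; points are libraries, the open circle is 10 mg/kg replicate 2, and bars give the mean and SD (n = 6). The groups overlap for every member drawn, while all dosed tumours lie above all vehicle tumours for SOCS1, at 34.7 CPM or more against at most 28.9 CPM.

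No sensing gene passed at either dose, and 1 library gave the lowest 10 mg/kg values of DDX58, IFIH1, EIF2AK2 and ADAR. DDX58, the gene of the RNA sensor RIG-I, had medians of 149, 146.5 and 158 CPM with vehicle, 10 and 30 mg/kg, and IFIH1, the gene of the RNA sensor MDA5, 71.3, 71.4 and 77.6 CPM. ADAR, which edits double-stranded RNA so that it is not sensed as foreign, stood at 854, 903 and 937 CPM with vehicle (lowest, median, highest) and at 720, 891 and 953 CPM at 30 mg/kg. At 10 mg/kg ADAR stood at 272, 875.5 and 961 CPM. The 272 CPM belonged to replicate 2 (127 counts), the rest of the group standing at 826 to 961 CPM. EIF2AK2, the kinase PKR that stops translation on double-stranded RNA, showed the same pattern, at 98.4 CPM in that library against 207 to 360 CPM in the rest of the group. STING1, the adaptor downstream of CGAS, had medians of 15.4, 16.3 and 15.6 CPM. Differences from vehicle at 10 mg/kg were -0.17 for ADAR and -0.28 for EIF2AK2 on the log2 scale, and -0.005 and -0.14 without that library. The 5 sensing genes tested had median log2 differences of -0.04 and -0.03 at 10 and 30 mg/kg, the first turning to 0.07 without that library, and the lowest edgeR adjusted p among them was 0.704.

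No MHC class I gene passed at either dose. TAPBP, the gene of tapasin, which loads peptide onto class I molecules, had the highest log2 difference of the class at both doses with all libraries in the fit. It stood at 165, 174 and 211 CPM with vehicle (lowest, median, highest), 184, 211 and 218 CPM at 10 mg/kg, and 189, 200 and 218 CPM at 30 mg/kg. The highest vehicle tumours reached into the dosed ranges, and neither difference passed (log2 0.16 ± 0.09 and 0.13 ± 0.09 SE, edgeR adjusted p = 0.599 and 0.849). HLA-B stood at 321, 434.5 and 492 CPM with vehicle, 371, 461 and 603.5 CPM at 10 mg/kg, and 384, 429 and 523 CPM at 30 mg/kg, with log2 differences of 0.15 and 0.06. B2M was at 290, 325 and 341 CPM with vehicle and 308, 327 and 346 CPM at 30 mg/kg, and at 143, 301 and 397.5 CPM at 10 mg/kg, where the lowest was replicate 2. Its log2 difference at 10 mg/kg was -0.12, and -0.001 without that library. HLA-C, TAP1, TAP2 and PSMB9 differed by log2 values from -0.02 to 0.14 over both doses. TAP1 had 47.1 CPM on 22 counts in 10 mg/kg replicate 2, and without that library its 10 mg/kg difference was 0.25, above the 0.15 of TAPBP, and did not pass (edgeR adjusted p = 0.294). PSMB8, with 1.52 to 6.82 CPM over the 18 libraries, had log2 differences of -0.45 and -0.22 and the widest intervals of the class. The 8 genes together had medians of 0.07 and 0.03, with 6 above and 2 below vehicle at each dose, and 0.12 at 10 mg/kg without replicate 2.

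Some libraries stood apart across many members. In 10 mg/kg replicate 2 the median member lay 0.62 below the vehicle mean on the log2(CPM + 0.5) scale, where the median of all genes lay 0.09 below. The drop was uneven over the roles, with medians of -1.30 for sensing, -0.87 for effectors, -0.26 for regulators and -0.08 for MHC class I. That library was the lowest of its group for 24 of 35 members (68.6%) and for 42.5% of all genes. In 10 mg/kg replicate 5 the median member lay 0.29 above the vehicle mean, where the median of all genes lay 0.01 above, and it was the highest of its group for 19 of 35 members (54.3%) and 17.7% of all genes. Vehicle replicate 6 and 30 mg/kg replicate 6 were the highest of their groups for 11 and 13 members (31.4% and 37.1%), each against 13.0% of all genes, and 30 mg/kg replicate 1 was the lowest of its group for 12 members (34.3%) against 13.4% of all genes.

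Leaving out 10 mg/kg replicate 2 moved the median difference of the members at 10 mg/kg from 0.03 to 0.08, and leaving out replicate 5 moved it to -0.01. Members called stayed at 0 in both cases. Between the doses the median moved from -0.02, with 14 members higher and 21 lower at 30 mg/kg, to -0.08, with 6 higher and 29 lower, without replicate 2. It was 0.04 without replicate 5, the single library whose removal turned its sign. Within groups the median SD of the members lay near that of all genes tested, which were not matched to the members by level. The median SD was 0.18 for members and 0.20 for all genes with vehicle, 0.23 and 0.24 at 10 mg/kg without replicate 2, and 0.22 and 0.26 at 30 mg/kg (log2 scale).

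**Figure D5:**
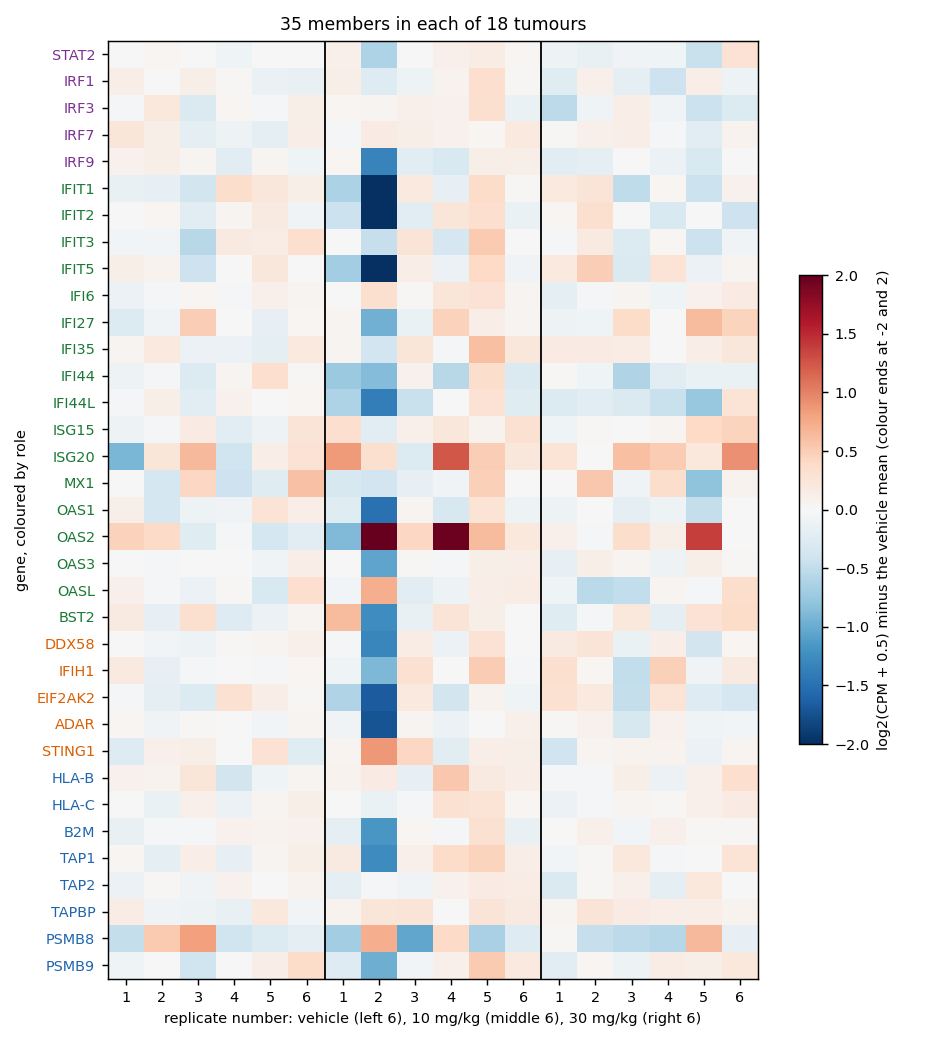
Difference of log2(CPM + 0.5) from the vehicle mean for 35 members (rows, names coloured by role) in each of 18 tumours (columns, 6 per group), with colour ends at -2 and 2. The column of 10 mg/kg replicate 2 is low for most sensing and effector genes and 10 mg/kg replicate 5 is high for many members, by a median of 0.29.

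Members that share a locus or a complex were compared across the 18 tumours in 10 pairs, by Pearson's r and Spearman's rho of log2(CPM + 0.5) with two-sided permutation p-values adjusted over the pairs. IFIT1 and IFIT3, with 1 protein-coding gene between them on chromosome 10, varied together between tumours (r = 0.64, adjusted permutation p = 0.00535, rho = 0.77, adjusted p = 0.0033). Shared reads could raise the values of this pair. For IFIT1 with IFIT3, r was 0.86 without the 2 libraries farthest from the median and 0.74 without 10 mg/kg replicate 2. Within the vehicle, 10 and 30 mg/kg groups it was 0.84, 0.74 and 0.91. IRF9 and STAT2, subunits of 1 complex on different loci, gave r = 0.80 (adjusted permutation p = 0.0047, rho = 0.63, adjusted p = 0.0343), 0.70 without the 2 farthest libraries, and 0.90, 0.95 and 0.81 within the groups. Without 10 mg/kg replicate 2 this pair gave r = 0.55 (adjusted permutation p = 0.0464, rho = 0.56, adjusted p = 0.0752), and r within the 10 mg/kg group was 0.32. HLA-B and HLA-C gave r = 0.68 (adjusted permutation p = 0.00637, rho = 0.55, adjusted p = 0.0683), with 0.45 without the 2 farthest libraries and 0.55, 0.67 and 0.80 within the groups. It was 0.76 without replicate 2, and shared reads could raise it.

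Other pairs passed only with 10 mg/kg replicate 2 in the data. TAP1 and PSMB9, the head-to-head pair shown above, gave r = 0.77 (adjusted permutation p = 0.00972) but rho = 0.35 (adjusted p = 0.215), and r was 0.35 without that library. It was 0.09 without the 2 farthest libraries and -0.01, 0.91 and 0.27 within the groups. OAS1 and OAS3 gave r = 0.82 (adjusted permutation p = 0.0378, rho = 0.27, adjusted p = 0.360) and 0.05 without that library, and IFI44 and IFI44L 0.63 (adjusted permutation p = 0.00972, rho = 0.49, adjusted p = 0.0977) and 0.44. Without the 2 farthest libraries these pairs gave 0.24 and 0.30, and within the groups 0.14, 0.96 and -0.32 and 0.55, 0.71 and 0.04. In these 3 pairs the Pearson calls were lost without that 1 shallow library. On log2(TPM + 1) with all libraries rho passed for IFI44 with IFI44L (0.63, adjusted permutation p = 0.0172) and for OAS1 with OAS3 (0.54, adjusted permutation p = 0.0438). On log2(CPM + 0.5) neither measure passed for TAP2 with PSMB8, PSMB8 with PSMB9, B2M with HLA-B and IRF1 with TAP1 (r = 0.16, -0.42, -0.19 and 0.43, lowest adjusted permutation p = 0.0998). On log2(TPM + 1) IRF1 with TAP1 passed by r (0.81, adjusted permutation p = 0.00397) but not by rho (0.37, adjusted permutation p = 0.214). Its r on that scale was 0.36 without the 2 farthest libraries, 1 of them 10 mg/kg replicate 2.

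Genes of the same pathway outside the 36 did not pass, with 1 exception. Of 87 such genes 70 were tested, and 1 rose at each dose, where 0.419% of all genes rose at 10 mg/kg and 0.568% at 30 mg/kg. None of the 70 fell, where 0.0497% of all genes fell at either dose. The gene that rose was SOCS1, the suppressor of cytokine signalling that binds and inhibits JAK kinases. SOCS1 stood at 19.6, 24.4 and 28.9 CPM with vehicle (lowest, median, highest of 6), 34.7, 42.4 and 55.0 CPM at 10 mg/kg, and 35.2, 39.8 and 46.2 CPM at 30 mg/kg. All 12 dosed tumours lay above all 6 vehicle tumours, and the dose groups overlapped each other. The rise was 1.83-fold at 10 mg/kg (95% interval 1.52 to 2.20, log2 0.87, edgeR adjusted p = 0.000669) and 1.66-fold at 30 mg/kg (log2 0.73, edgeR adjusted p = 0.00249). Between the doses it differed by -0.14 on the log2 scale (edgeR adjusted p = 0.969), and the trend over dose steps did not pass (edgeR adjusted p = 0.0784). The trend passed with DESeq2 (adjusted p = 0.00932) and without 10 mg/kg replicate 2, 4 or 5 (edgeR adjusted p = 0.0409, 0.0470 and 0.0332). It also passed without the 3 libraries richest in leukocyte, fibroblast and endothelial markers, COL1A1 aside (edgeR adjusted p = 0.0175).

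The SOCS1 calls held in all 18 fits with 1 library left out, with edgeR adjusted p of at most 0.00397 at 10 mg/kg and 0.0125 at 30 mg/kg. Without the 3 libraries richest in leukocyte, fibroblast and endothelial markers, COL1A1 aside, the log2 differences were 0.83 and 0.74. On deposited TPM, tested by limma-trend, they were 0.74 and 0.70 and did not pass (adjusted p = 0.105 and 0.124). There 10 mg/kg replicate 2 stood at 44.8 TPM, inside the vehicle range of 34.5 to 51.3 TPM. Its promoter (chr16:11256205-11256454, minus strand, the 250 bases before the start) holds 1 ISRE-like match, as do members that did not pass.
SOCS1: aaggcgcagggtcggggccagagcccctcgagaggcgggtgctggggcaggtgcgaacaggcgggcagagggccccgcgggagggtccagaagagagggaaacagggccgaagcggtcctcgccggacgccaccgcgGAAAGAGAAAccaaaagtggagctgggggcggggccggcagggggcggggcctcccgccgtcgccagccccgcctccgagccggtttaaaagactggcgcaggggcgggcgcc

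The other receptors, kinases and brakes (12 of 13 tested genes) did not pass. Of 10 interferon genes only IFNE, an interferon of epithelia, had enough counts to be tested. It stood at 7.53, 8.19 and 9.498 CPM with vehicle, 6.42, 8.86 and 12.5 CPM at 10 mg/kg and 3.56, 8.02 and 11.97 CPM at 30 mg/kg (edgeR adjusted p = 0.802 and 0.999). The remaining 9 had 5 to 39 counts each over all 18 libraries, IFNB1, the first interferon made by most sensing cells, having 18. Of 13 sensing partners, 28 further interferon-induced genes and 15 further antigen presentation genes tested, 0 passed at either dose.

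The lowest in p of those lists did not pass either. IKBKE, a kinase of IRF3, had medians of 15.3 CPM with vehicle and 16.8 CPM at 10 mg/kg (edgeR adjusted p = 0.714), and SAMD9L, an antiviral protein, 8.76 and 13.8 CPM (0.588). DHX58, a relative of the RIG-I sensor, had medians of 15.9 CPM with vehicle and 18.04 CPM at 30 mg/kg (edgeR adjusted p = 0.917). TRIM22, an antiviral ubiquitin ligase, stood at 18.4, 23.5 and 29.8 CPM with vehicle and 12.6, 16.3 and 22.4 CPM at 30 mg/kg (log2 -0.51, edgeR adjusted p = 0.211), with overlapping ranges. ERAP2, which trims peptides for class I, had medians of 15.2, 13.4 and 13.0 CPM with vehicle, 10 and 30 mg/kg (edgeR adjusted p = 0.681 and 0.709). The chemokine genes CXCL10 and CXCL11 and the tryptophan-degrading enzyme gene IDO1, which interferon gamma induces strongly, had 14, 4 and 25 counts over all 18 libraries and were not tested.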

How the data were processed

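RNA-seq of 18 xenograft tumours (3 groups of 6, by the labels) was analysed. Per the labels, RNA was extracted from homogenised tumours and made into stranded total RNA libraries. The submitters' processing notes name STAR 2.4.2a and the builds hg19 and mm10. Roles of these, annotation, quantifier and separation of mouse reads: not given in the sources used here. Per the file headers, the deposited tables hold expected counts (estimated reads per gene, not scaled) and TPM, scaled by the authors for transcript length, keyed by Entrez gene ID. Symbols came from RefSeq, by ID for 25220 genes and by accession for 26, and 97 had none. DDX58 was matched by its older symbol.

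Expected counts were rounded, filtered with filterByExpr (14074 genes, 35 of 36 members, CGAS failing), normalised by TMM and tested in 1 model with edgeR's robust quasi-likelihood test, edgeR 4.0.16 in R 4.3.3. Benjamini-Hochberg adjustment was over all genes tested, with a threshold of 0.05. Standard errors come from the fold change and F statistic, and 95% intervals from the t quantile. CPM are TMM-scaled. The trend coded vehicle, 10 and 30 mg/kg as 0, 1 and 2. Permutation p-values used 100000 resamples (scipy 1.17.1). The model was tested on simulated data.

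Alternatives were DESeq2 size factors, no filter, at least 5 CPM in 6 libraries, DESeq2 1.42.0, limma-trend (limma 3.58.1) on log2(TPM + 1), groups compared alone, a replicate block, and leave-one-out fits. Leaving out the 3 libraries with the highest leukocyte, fibroblast and endothelial marker sums, COL1A1 aside, was chosen after seeing the data. Members and lists were chosen with earlier results of these data known. All members are accounted for. Those past the threshold, or else the 3 with the smallest p at each dose, get values in every group, and of each other list the genes past it or else the 1 with the smallest p. Members described beyond this rule were chosen after their values were seen. Promoter windows are RefSeq GRCh38.p14, and no coordinates are given for the counts.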

Additional observations from a re-analysis of the deposited data

Results flagged for a closer look

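Each member's 6 values in a group were searched for a library far from the others (Dixon's ratio above its 95% critical value, in 108 combinations of gene and group). Chance marks about 1 in 20 groups, and 11 were marked, 6 of them in 10 mg/kg replicate 2. Of these 6, 5 were low. In that library ADAR stood at 272 CPM (the rest of its group 826 to 961), OAS3 at 284.5 (586 to 646), STAT2 at 72.7 (111 to 124), DDX58 at 59.9 (137.5 to 182) and TAP1 at 47.1 (122 to 154), while OASL was high at 25.7 CPM (13.0 to 17.1). Its total of 433981 counts is the lowest of the series, and the part of depth in these values was not tested.

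The other 5 were spread over the groups. With vehicle, STAT2 was low in replicate 4 at 105.5 CPM (the rest 112.5 to 114.6), IFI27 was high in replicate 3 at 218 CPM (128 to 159) and OAS3 was high in replicate 6 at 647.5 CPM (562 to 591). At 10 mg/kg MX1 was high in replicate 5 at 12.1 CPM (6.42 to 8.53). At 30 mg/kg OAS2 was high in replicate 5 at 6.85 CPM (2.27 to 3.11).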

How the results depend on the processing

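Members called stayed at 0 in every contrast under every alternative run. Medians of the members ranged from -0.01 to 0.08 at 10 mg/kg, -0.01 to 0.04 at 30 mg/kg and -0.08 to 0.04 between the doses with each library left out in turn. With limma-trend on TPM the median between the doses was 0.16, not -0.02, beside 0.09 over all genes. That scale moved the median of all genes at 10 mg/kg by -0.12, and the members there to -0.13. Pairs passing fell from 6 to 3 without 10 mg/kg replicate 2. B2M with HLA-B gave r = 0.49 on TPM, and IRF1 with TAP1 passed there by r (0.81) but not by rho. IFNE at 30 mg/kg changed sign, to -0.10 on TPM, -0.028 with the replicate block, and between -0.14 and 0.16 with each library left out, below 0 without vehicle replicate 3 (-0.003) or 4 (-0.001) or 30 mg/kg replicate 1 (-0.14) or 6 (-0.08). The cause was not tested.

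Counts over all genes at 10 mg/kg, 30 mg/kg and over dose steps were 66, 87 and 69. They were 32, 57 and 41 with no filter, 159, 179 and 172 with DESeq2, 12, 23 and 3 on TPM, and 36 and 191 with groups compared alone. With each library left out they ran from 31 to 121, 61 to 182 and 31 to 136, the highest without 10 mg/kg replicate 2, and with 3 libraries left out they were 96, 223 and 216. With the replicate block they were 24, 60 and 33, members called stayed at 0, and their medians were 0.02, 0.01 and -0.005. Same-numbered libraries correlated above 0.1 in 3 of 18 pairs (-0.28 to 0.22), and in 4 of 18 a library matched its own number best. Such values do not settle whether the numbers pair the tumours, and the labels do not say that they do. Depth limits most the 10 mg/kg contrast and OAS2, PSMB8, MX1 and CGAS.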
